A study of Homo sapiens with 14 samples.

Results

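The aldo-keto reductases are enzymes that reduce aldehydes and ketones with NADPH, and 10 genes of this family are described here in cells whose RNA-editing enzyme ADAR1 was knocked down. The members are AKR1C1, AKR1C2, AKR1C3, AKR1C4, AKR1B1, AKR1B10, AKR1A1, AKR1D1, AKR7A2 and AKR7A3, and all 10 were found by symbol among the 21574 genes of the deposited RPKM table (reads per kilobase of transcript and per 1000000 reads). The genes were chosen on their knockdown-to-control ratios in these same data. Every comparison of knockdown with control for a member is therefore a description with no test.

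The study compared cells labelled HepG2, a line from a human liver carcinoma, carrying a scrambled siRNA (control) or an siRNA against ADAR1 (KD). The labels describe the siRNA as stably transfected and name no clone. The study calls its PARS-seq and Ribo-seq replicates biological, while the labels give replicate numbers and do not say whether separate cultures were used. The p-values therefore rest on the spread between these samples, which the tests pooled over genes or transcripts. PARS-seq, in which mRNA is cut by S1 nuclease at unpaired bases or by RNase V1 at paired bases and the read starts are mapped, had 2 libraries for each enzyme and condition. RNA-seq had 1 library per condition, and Ribo-seq, which sequences the mRNA fragments protected by ribosomes, had 2 per condition.

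The family works in detoxification and in hormone metabolism. AKR1C enzymes interconvert steroid hormones and prostaglandins, AKR1B enzymes reduce sugars, lipid aldehydes and retinal, AKR1A1 and the AKR7A enzymes clear reactive aldehydes, and AKR1D1 acts in bile acid synthesis. Several AKR1B and AKR1C genes are textbook targets of NRF2, the transcription factor of the oxidative stress response, which KEAP1 holds inactive in unstressed cells.

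Some facts of the whole series touch every value. ADAR, the targeted gene, was lower in each KD column, from 40.7 and 46.8 to 15.1 and 15.1 RPKM in PARS-seq, from 54.8 to 15.4 RPKM in RNA-seq, and from 43.6 to 8.73 RPKM in Ribo-seq replicate 1. In Ribo-seq replicate 2 it was 55.5 RPKM in control and 44.03 RPKM in KD, a smaller difference than in any other pair. None of the 9 hepatocyte markers in the table reached 1 RPKM in any column, with ALB at 0.0442 RPKM or less and a summed level of 0 to 0.933 RPKM, so that the labelled liver origin was not seen in these markers. Of 5 fibroblast markers, 1 to 4 reached 1 RPKM in each column, and their summed level was lower in KD in all 5 pairs, from 24.1 and 32.1 to 18.03 and 20.2 RPKM in PARS-seq, from 67.6 to 49.5 RPKM in RNA-seq, and from 134 to 100.7 and from 17.5 to 11.9 RPKM in Ribo-seq. A single gene of the 5 leukocyte markers reached 1 RPKM, and the summed level of that list was 5.04 and 4.06 RPKM in PARS-seq control against 1.48 and 1.73 RPKM in PARS-seq KD, and 22.7 against 15.7 RPKM in RNA-seq. In Ribo-seq it was 14.1 against 6.14 RPKM in replicate 1 and, in the other direction, 2.14 against 3.41 RPKM in replicate 2, while endothelial markers stayed below 1 RPKM. The part of these markers in the results below was not tested, and in bulk samples fewer cells of a type and less RNA per cell cannot be told apart.

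By the genes listed at 0, the columns of the table also fell into 2 sets. A total of 17 genes were listed at 0 in all PARS-seq and Ribo-seq replicate 2 columns but at 1 RPKM or more in all RNA-seq and Ribo-seq replicate 1 columns, and 14 genes showed the reverse, while no gene did so when the Ribo-seq replicates were exchanged. Other values grouped the columns another way. A further 18 genes were at 0 in the RNA-seq and all Ribo-seq columns but at 1 RPKM or more in all PARS-seq columns. Spearman's correlation over 11368 genes was higher between RNA-seq control and Ribo-seq control of replicate 2 (0.790) than of replicate 1 (0.733), and higher between PARS-seq control replicate 1 and Ribo-seq control of replicate 1 (0.789) than of replicate 2 (0.719). Whether the columns were made in the same way was not tested. Ratios were accordingly taken within a pair of columns, except in the unpaired Ribo-seq fits and some alternatives given below. Levels are not compared between assays, except in the Ribo-seq to RNA-seq ratios given below with this limit.

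The AKR1C genes lie side by side on chromosome 10 of GRCh37, the genome build of the files. AKR1C1 spans chr10:5005445-5025475 (+ strand), AKR1C2 chr10:5029967-5060223 (− strand), AKR1C3 chr10:5077546-5149878 (+ strand) and AKR1C4 chr10:5237425-5260912 (+ strand). Their coding sequences have the same length of 969 bases without the stop codon, so that they can be compared base by base. AKR1C1 and AKR1C2 differ at 19 of these bases (98.04% identity), while AKR1C1 and AKR1C3 differ at 83 (91.43%) and AKR1C1 and AKR1C4 at 111 (88.54%).

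This likeness matters for the values, because the authors kept only reads that aligned to a single place. Of the 940 windows of 30 bases in the coding sequence of AKR1C1, 635 (67.55%) occur unchanged in a transcript of AKR1C2, and 263 occur in no other gene. At 50 bases, 51.63% of the windows were still shared. AKR1C3 shares 33.83% of its 30-base windows with some other gene and AKR1A1 shares none. The 30-base coding window in which AKR1C1 and AKR1C2 differ most, coding bases 111 to 140 in exon 2, shows the few letters by which a read can be told apart. Capitals mark bases that differ from AKR1C1.

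AKR1C1, chr10:5008132-5008161 (+ strand): caccaaattggcaattgaagctggcttccg
AKR1C2, chr10:5043818-5043847 (− strand): cGTcaaattggcaatAgaagcCggGttccA
AKR1C3, chr10:5138628-5138657 (+ strand): cacAaaattAgcaatAgaagctggGttccg
AKR1C4, chr10:5242170-5242199 (+ strand): caccaaattAgcaatAgaagctggcttccg

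AKR1C2 carries 6 differences from AKR1C1 in this window, AKR1C3 carries 4 and AKR1C4 carries 2. A short distance downstream in the same exon, coding bases 163 to 192 read the same in all 4 genes, tacaataatgaggagcaggttggactggcc, and a read from there has no unique place among them. This stretch lies at chr10:5008184-5008213 (+ strand) in AKR1C1.

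AKR1C1 reduces progesterone to an inactive form. In PARS-seq its level was 97.9 and 77.2 RPKM in control replicates 1 and 2 and 2.61 and 3.66 RPKM in KD, each of them the authors' average over both enzymes. The 2 control values lay far above both KD values, by 37.6-fold in replicate 1 and 21.1-fold in replicate 2. In RNA-seq it was 165 RPKM in control and 31.9 RPKM in KD, 5.16-fold lower. In Ribo-seq it was 167 RPKM in control and 34.6 RPKM in KD in replicate 1, and 11.1 and 4.52 RPKM in replicate 2. KD was below control in both Ribo-seq pairs (4.82-fold and 2.46-fold), but the control value of replicate 2 was below the KD value of replicate 1, so that the groups overlapped. On the scale of log2((KD + 1)/(control + 1)), AKR1C1 had the lowest ratio of 11151 genes in both PARS-seq pairs and of 10944 genes in RNA-seq, and ranked 21st and 100th from the lowest among 10880 genes in the Ribo-seq pairs.

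AKR1C2 inactivates dihydrotestosterone, the most potent androgen. It was at 45.1 and 39.4 RPKM in PARS-seq control and at 2.35 and 2.89 RPKM in PARS-seq KD, which is 19.2-fold and 13.6-fold lower. RNA-seq gave 3.30 RPKM in control and 0.343 RPKM in KD, and Ribo-seq gave 4.59 and 0.685 RPKM in replicate 1 and 6.81 and 4.30 RPKM in replicate 2. Within the Ribo-seq pairs KD was 6.70-fold and 1.58-fold lower. All KD values were below all control values within each of the 3 assays, although RNA-seq had 1 value per condition and the Ribo-seq replicates lie in different sets of columns.

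The division of reads between AKR1C1 and AKR1C2 differed among the columns. AKR1C1 was 2.17 and 1.96 times as high as AKR1C2 in the PARS-seq control columns and 1.63 times in Ribo-seq control replicate 2. In RNA-seq control the ratio was 49.9 and in Ribo-seq control replicate 1 it was 36.3, and the KD columns of the same pairs gave 93.1 and 50.5. The 2 sets of columns are those separated above by the genes listed at 0. The single values of AKR1C1 and AKR1C2 are therefore uncertain, and which share of reads went to which gene was not tested.

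**Figure D1:**
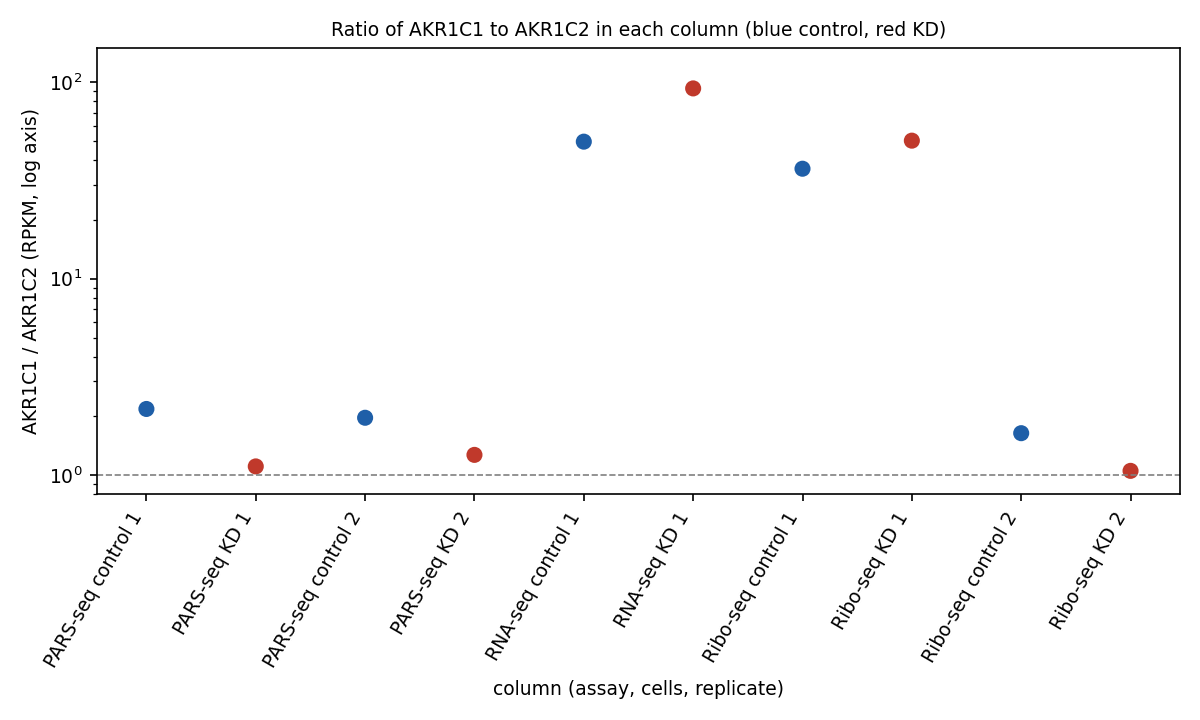
AKR1C1 RPKM divided by AKR1C2 RPKM (log axis) in each of the 10 columns of the table, control in blue and KD in red, with a dashed line at 1. The PARS-seq and Ribo-seq replicate 2 columns lie between 1.05 and 2.17, and the RNA-seq and Ribo-seq replicate 1 columns between 36.3 and 93.1.

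AKR1C3 makes testosterone from androstenedione and reduces prostaglandins. It was the most abundant member in PARS-seq, at 648 and 480 RPKM in control, where it ranked 72nd of 17470 and 104th of 17673 genes listed above 0. In KD it was at 45.6 and 47.5 RPKM, 14.2-fold and 10.1-fold lower. RNA-seq gave 105 RPKM in control and 23.5 RPKM in KD (4.46-fold), and Ribo-seq replicate 1 gave 267 and 61.5 RPKM (4.34-fold). Ribo-seq replicate 2 gave 42.4 RPKM in control and 27.3 RPKM in KD, a 1.55-fold difference, and its control value lay below the KD value of replicate 1. AKR1C3 made up 48.8% to 51.9% of the summed RPKM of the 10 members in PARS-seq control and 25.7% to 27.8% in PARS-seq KD.

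AKR1C4, the form best known from liver, was at most 0.252 RPKM in any column. Its PARS-seq values were 0.160 and 0.196 RPKM in control and 0.00933 and 0.00637 RPKM in KD, it was listed at 0 in both RNA-seq columns, and 3 of its 4 Ribo-seq values were 0. No fold is read from values this low.

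The RefSeq table of promoters, on GRCh38.p14, holds 250 bases before to 50 bases after the start site for 9 members in 12 entries, and none for AKR1B10. Upstream of the start site, AKR1C1 and AKR1C2 share an identical run of 245 bases. The letters TGACNNNGC, the core of the antioxidant response element to which NRF2 binds, were searched on both strands, and TGANTCA, the AP-1 site that partly resembles it, was searched beside them. TGACNNNGC occurs in 2 of the 12 entries, both of AKR7A2 with start sites close to each other, against 13.35% of all 35116 promoters, and TGANTCA in 0 of 12 against 7.71% of all. The promoter of AKR7A2, whose values are given below, is shown at the matches, in capitals.

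AKR7A2, chr1:19312283-19312312 (− strand): ccgggtcagcTGACCGCGCgccaccgcccc
AKR7A2, chr1:19312222-19312251 (− strand): cgcgctgggcTGACCGGGCctggaggcgcc

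One more match, on the other strand, overlaps the first window. The absence of the letters from the AKR1C and AKR1B1 entries concerns these 300 bases only, and binding outside them was not analysed here.

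AKR1B1, aldose reductase, takes the first step of the polyol pathway by reducing glucose to sorbitol. It lies at chr7:134127108-134144036 (− strand, GRCh37). In PARS-seq it was at 323 and 287 RPKM in control and at 35.0 and 46.8 RPKM in KD, which is 9.25-fold and 6.13-fold lower. In RNA-seq it was at 296 RPKM in control, the highest value of the 10 members there, and at 80.9 RPKM in KD (3.66-fold). Ribo-seq replicate 1 gave 276 and 75.4 RPKM, again 3.66-fold apart, while replicate 2 gave 65.2 and 56.5 RPKM, 1.15-fold apart. The low control value of replicate 2 made the Ribo-seq groups overlap.

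AKR1B10 reduces retinal and lipid aldehydes and lies next to AKR1B1, at chr7:134212319-134226164 (+ strand, GRCh37). Its level was 13.4 and 9.31 RPKM in PARS-seq control and 0.345 and 0.262 RPKM in PARS-seq KD, 38.9-fold and 35.6-fold lower. RNA-seq gave 1.14 and 0.0622 RPKM, Ribo-seq replicate 1 gave 1.26 RPKM in control and was listed at 0 in KD, and replicate 2 gave 0.566 and 0.261 RPKM. KD was below control in every pair, although outside PARS-seq the levels were near or below 1 RPKM. AKR1B10 shares 34.82% of its 30-base coding windows with AKR1B15, so that its reads too can be lost or divided.

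**Figure D2:**
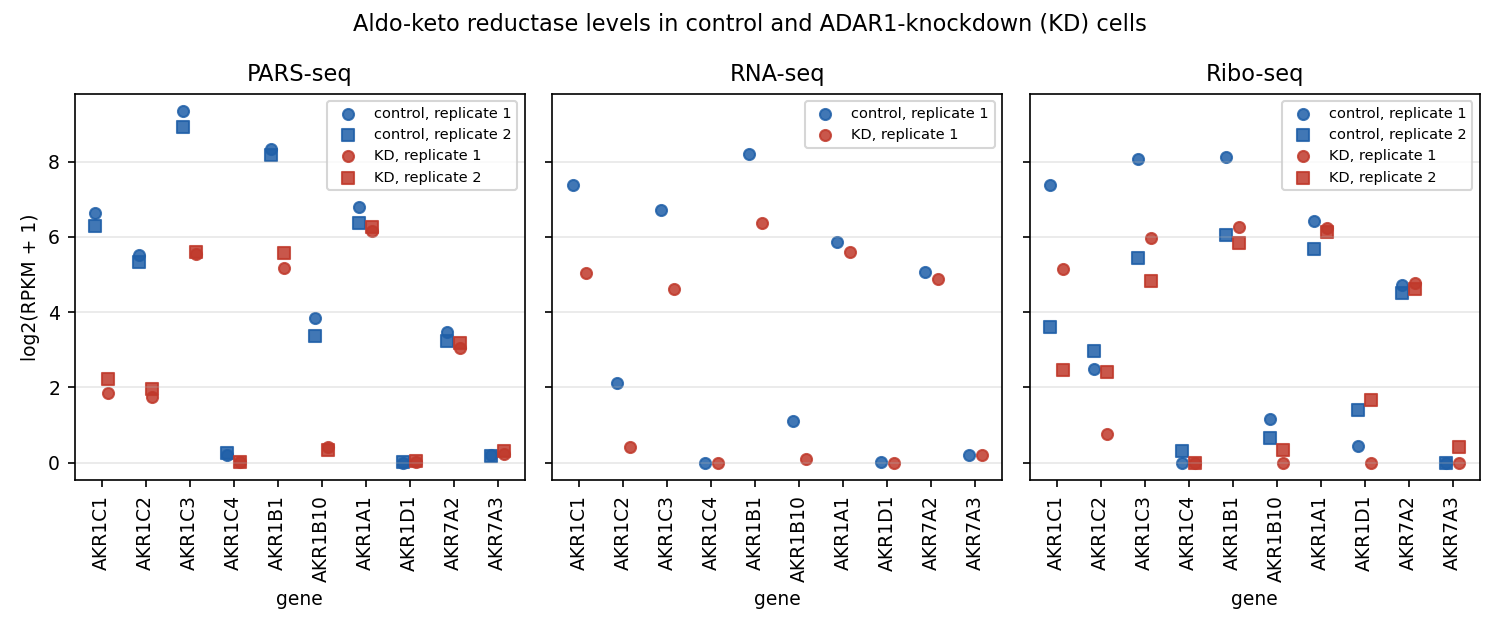
Level of each of the 10 genes as log2(RPKM + 1) in PARS-seq (authors' means of S1 and V1 libraries), RNA-seq and Ribo-seq, with one point per column, control in blue and KD in red, circles for replicate 1 and squares for replicate 2. AKR1C1, AKR1C2, AKR1C3, AKR1B1 and AKR1B10 lie lower in KD in each pair of columns, and AKR1A1 and AKR7A2 lie close together in all.

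AKR1A1, aldehyde reductase, reduces glucuronate and many aldehydes and lies at chr1:46016215-46035721 (+ strand, GRCh37). It was at 110 and 82.1 RPKM in PARS-seq control and at 70.7 and 75.6 RPKM in KD, 1.55-fold and 1.09-fold lower. RNA-seq gave 57.5 and 47.4 RPKM, Ribo-seq replicate 1 gave 84.5 and 74.8 RPKM, and replicate 2 gave 50.1 RPKM in control and 68.7 RPKM in KD. The direction in Ribo-seq thus differed between the replicates.

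AKR7A2, an aldehyde reductase that acts on succinic semialdehyde and aflatoxin dialdehyde, lies at chr1:19630459-19638638 (− strand, GRCh37). Its PARS-seq values were 10.1 and 8.45 RPKM in control and 7.31 and 8.03 RPKM in KD. RNA-seq gave 32.3 and 28.6 RPKM, and Ribo-seq gave 25.3 and 26.4 RPKM in replicate 1 and 21.6 and 23.5 RPKM in replicate 2. No pair of AKR7A2 differed by more than 1.38-fold.

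AKR7A3, which reduces the same aflatoxin product, was at 0.136 to 0.236 RPKM in PARS-seq, at 0.158 and 0.160 RPKM in RNA-seq, and at 0 to 0.335 RPKM in Ribo-seq. AKR1D1, the steroid reductase of bile acid synthesis, was at or below 0.0363 RPKM in PARS-seq and RNA-seq. In Ribo-seq AKR1D1 was at 0.371 RPKM in control and 0 in KD of replicate 1, and at 1.67 and 2.15 RPKM in replicate 2. Both genes were too low for a ratio to be read, although AKR1D1 passed the filter on a mean of 1 RPKM in Ribo-seq and so counts among the 7 members that passed it there.

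In PARS-seq control the order of levels was AKR1C3, AKR1B1, then AKR1A1 and AKR1C1, AKR1C2, then AKR1B10 and AKR7A2, with the other 3 genes below 1 RPKM. The replicates of AKR1A1 (110 and 82.1 RPKM) and AKR1C1 (97.9 and 77.2 RPKM) overlapped, as did those of AKR1B10 and AKR7A2, so that these neighbours did not differ beyond the spread of the replicates, although within each replicate AKR1A1 was above AKR1C1 and AKR1B10 above AKR7A2. In PARS-seq KD AKR1A1 came first, followed by AKR1C3 and AKR1B1, whose values overlapped. The summed level of the 10 genes was 1248 and 984 RPKM in PARS-seq control against 164 and 185 RPKM in KD.

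Counts past a fixed fold put these values beside all genes. A gene was counted as 2-fold lower where log2((KD + 1)/(control + 1)) was −1 or less in every pair of columns of an assay, and all genes with a mean of at least 1 RPKM in the assay served as background. In PARS-seq 5 of the 10 members were 2-fold lower (AKR1C1, AKR1C2, AKR1C3, AKR1B1 and AKR1B10), where 2.04% of 11151 genes were lower and 1.06% were higher. In RNA-seq, with a single pair, the same 5 members were lower, with AKR1B10 just past the threshold at −1.01 and its mean under 1 RPKM, where 0.914% of 10944 genes were lower and 0.813% were higher. In Ribo-seq 1 member, AKR1C1, was lower in both pairs, where 0.257% of 10880 genes were lower and 0.386% were higher. No member was 2-fold higher in any assay, and since these ratios chose the genes, nothing is read from the excess over the background. The filter on a mean of 1 RPKM kept 7 members in PARS-seq, 6 in RNA-seq and 7 in Ribo-seq. AKR1B10 in PARS-seq and AKR1C2 in RNA-seq passed it only through their control values, so that no median is given over the members that passed. AKR1C1 was the only member among the 9 of 9803 genes that were 2-fold lower in every pair of all 3 assays.

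The Ribo-seq replicates differed in these counts. In replicate 1 alone, AKR1C1, AKR1C2, AKR1C3, AKR1B1 and AKR1B10 were 2-fold lower (5 members), where 3.3% of genes were lower. AKR1B10 is outside that background, since its mean was under 1 RPKM, and its ratio of −1.18 comes from 1.26 RPKM in control and a KD value listed at 0. In replicate 2 alone, 1 member was lower (AKR1C1), where 1.6% of genes were lower. Replicate 2 is also the pair in which ADAR differed least, and whether the 2 facts are related was not tested.

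**Figure D3:**
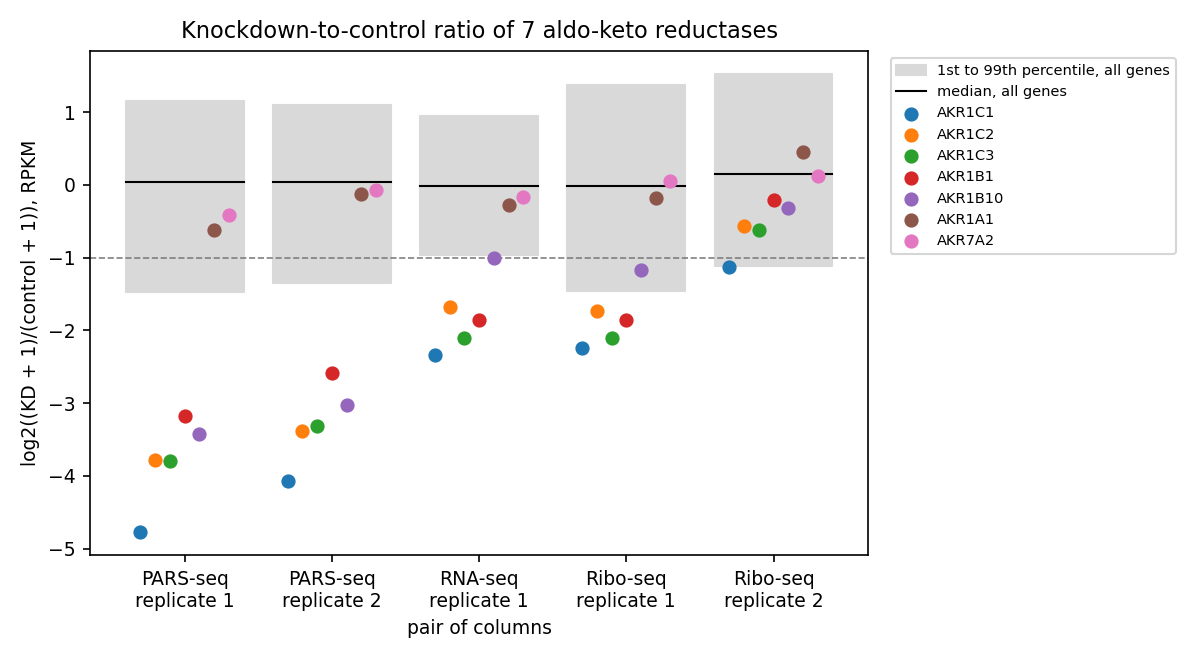
log2((KD + 1)/(control + 1)) of RPKM for 7 genes in the 5 pairs of columns, with the grey bar giving the 1st to 99th percentile and the black line the median of all genes whose mean reached 1 RPKM, and a dashed line at 2-fold lower. In both PARS-seq pairs 5 of the genes lie below −2.5, far under the grey bar, and in Ribo-seq replicate 2 AKR1C1 alone, at −1.14, lies under it.

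The genes whose 5 log2 ratios were nearest to those of AKR1C1, by Euclidean distance among 5666 other genes with a control mean of at least 10 RPKM, were AKR1C3, AKR1C2, ALDH3A1, CDKN1A and AKR1B1, at distances of 1.37, 1.58, 1.63, 2.31 and 2.45. ALDH3A1 oxidises lipid aldehydes and CDKN1A encodes the cell cycle inhibitor p21. ALDH3A1 was at 76.9 and 48.7 RPKM in PARS-seq control and at 5.26 and 5.53 RPKM in KD. The genes nearest to AKR1B1 were CYP4F11, FBXO2, AKR1C2, AKR1C3 and HPD, at distances of 1.03 to 1.11. CYP4F11 was at 2.04 and 0.127 RPKM in RNA-seq control and KD and at 1.48 RPKM or less in Ribo-seq. At such levels the 1 added shrinks the ratios, which holds in part for AKR1C2 outside PARS-seq too.

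The amount of ribosome footprint per mRNA within a condition was compared with that of other genes, as the ratio of Ribo-seq to RNA-seq RPKM, with 1 RNA-seq library and no test. In control replicate 1 AKR1C3 had the highest ratio of the members with at least 1 RPKM in RNA-seq, 2.55, above that of 91.41% of 10929 genes, and in KD replicate 1 it was 2.62, above 90.54% of 10892 genes. AKR1B1 stayed at 0.932 and 0.931 and AKR1C1 at 1.012 and 1.08 between control and KD of that replicate. In replicate 2 the order was another, with AKR1C1 at 0.0676 in control and 0.142 in KD, AKR1B1 at 0.220 and 0.698, and AKR1C3 at 0.405 and 1.16. The ratios of replicate 2 join columns of the 2 sets described above, and for these 3 genes it lay farther from replicate 1 than control lay from KD within replicate 1.

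Single PARS-seq libraries could be read for AKR1B1 and AKR1A1, the members whose symbols the supplementary tables pair with a UCSC transcript identifier. Read starts were summed over each transcript and given per 1000000 read starts of the library on the 4722 transcripts listed in all 8 libraries. These totals were 88565995 to 197781370 per library. AKR1B1 (1416 bases) had 338 and 250 scaled read starts in the S1 control libraries and 28.1 and 38.4 in the S1 KD libraries. With V1 it had 435 and 373 in control and 35.1 and 60.05 in KD. Both enzymes thus gave lower values in KD, by 12.01-fold and 6.52-fold with S1 and by 12.4-fold and 6.21-fold with V1. AKR1A1 (1469 bases) had 127 and 71.8 scaled read starts in S1 control and 53.1 and 61.0 in S1 KD, and 103 and 80.1 in V1 control against 51.7 and 71.5 in V1 KD. KD was lower in each of these 4 pairs and the groups did not overlap, with folds of 2.38 and 1.18 with S1 and of 2.00 and 1.12 with V1. These library totals include the most covered transcript, whose share was higher in KD in each pair (26.03 and 48.86% in control and KD of S1 replicate 1, 39.09 and 46.09% in S1 replicate 2, 38.17 and 59.35% in V1 replicate 1, and 46.36 and 47.01% in V1 replicate 2). With totals that leave it out, a scaling chosen after seeing the data, the folds of AKR1B1 were 8.30 and 5.77 with S1 and 8.15 and 6.13 with V1. Those of AKR1A1 were 1.65 and 1.04 with S1 and 1.31 and 1.11 with V1, so that KD stayed lower in each pair, by little in replicate 2.

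A comparison that did not use the knockdown is that of the enzymes within a condition, which asks whether a transcript gave more read starts with V1 or with S1. AKR1B1 had 1.39 times as many scaled read starts with V1 in control cells (log2 0.47 ± 0.29 SE, adjusted p = 0.32, limma over 4721 transcripts) and 1.40 times as many in KD cells (log2 0.48 ± 0.29 SE, adjusted p = 0.30). These SEs come almost wholly from a trend over all transcripts, not from the libraries of AKR1B1 alone. Among all transcripts 13.1% were called in control cells and 13.3% in KD cells at an adjusted p under 0.05. Of those called in control cells, 159 of 617 were higher with V1, against 468 of 1053 with TMM scaling and 728 of 1180 with library sizes taken without the most covered transcript, so that the split depends on the scaling. That transcript held 26.0% to 59.4% of the read starts of a library, and without it the differences of AKR1B1 became 0.69 (adjusted p = 0.030) and 0.66 (adjusted p = 0.034) and passed the threshold. Of all transcripts 88.5% were below AKR1B1 in control cells and 88.2% in KD cells, a place that scaling whole libraries cannot change. Single libraries moved the value of AKR1B1 in KD cells, which was 0.09 without V1 KD replicate 2, 0.87 without V1 KD replicate 1, 0.26 without S1 KD replicate 1 and 0.71 without S1 KD replicate 2, and in control cells it ran from 0.25 to 0.69. The interval of AKR1A1 ran from −0.64 to 0.50 on the log2 scale in control cells (adjusted p = 0.92) and from −0.47 to 0.66 in KD cells (adjusted p = 0.91). A difference between the enzymes was thus called for neither member at the library sizes used first.

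The pattern of read starts along both transcripts was much alike in all libraries of one enzyme. Spearman's correlation across the bases of AKR1B1 ranged from 0.631 to 0.862 for replicate pairs, from 0.661 to 0.776 for control against KD libraries of one enzyme, and from 0.170 to 0.283 for S1 against V1. For AKR1A1 the corresponding ranges were 0.591 to 0.714, 0.605 to 0.718 and 0.123 to 0.220. Bases are not independent replicates, and depth enters these values, since 80.9% and 79.2% of the bases of AKR1B1 had a V1 read start in control against 51.1% and 51.0% in KD. CorDiff, computed from Pearson's correlations as the sum of their squares between replicates minus that between conditions of the same replicate number, was −0.114 (S1) and 0.00241 (V1) for AKR1B1 and −0.0171 and −0.0203 for AKR1A1, that is, near 0 or below it for both genes. Pearson's correlations weigh the few bases with the most read starts, and for AKR1B1 with S1 they gave 0.821 between the control replicates against 0.845 and 0.943 between conditions, where Spearman's gave 0.809 against 0.666 and 0.676, the reverse order. This reversal concerns the control replicates only. Between the S1 KD replicates Spearman's gave 0.631, below both values between conditions, and Pearson's gave 0.904. The S1 control replicate 1 library stood apart in AKR1B1, with 17.7% of its read starts in the second of 20 stretches against 6.70% to 8.80% in the other S1 libraries. In AKR1A1 a single stretch, bases 588 to 661, held 44.8% (KD replicate 2) to 65.9% (control replicate 1) of the S1 read starts. It held 39.5% to 43.7% of the V1 read starts, so that the sums and Pearson's correlations of AKR1A1 rest in large part on it.

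**Figure D4:**
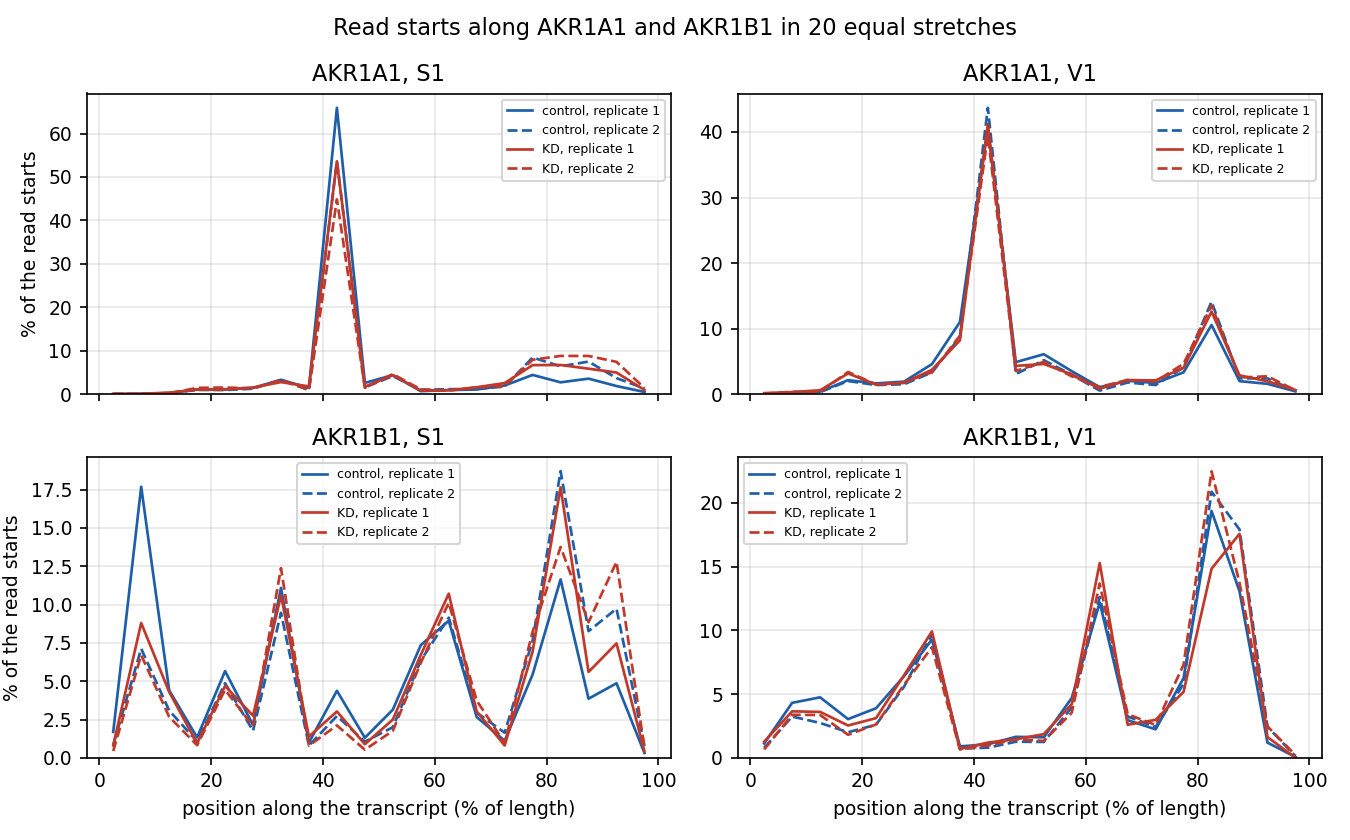
Percentage of the read starts of AKR1A1 and AKR1B1 in 20 equal stretches along the transcript (x axis, percent of its length) for S1 and V1, control in blue and KD in red, with solid lines for replicate 1 and dashed lines for replicate 2. Most peaks of one enzyme lie at the same stretches in control and KD, the highest V1 peak of AKR1B1 lies one stretch later in KD replicate 1 than in the other V1 libraries, and the 5′ peak of AKR1B1 with S1 is highest in control replicate 1.

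A base was called double-stranded (DS) or single-stranded (SS) where V1 and S1 read starts departed from the library totals at p under 0.05 in an exact binomial test, and each transcript was summarised as DS/(DS + SS). AKR1B1 had 496 DS and 220 SS bases in control replicate 1, a DS/(DS + SS) of 0.693, and 152 DS and 110 SS bases in KD replicate 1, a value of 0.580. In replicate 2 the values were 0.683 in control, from 450 DS and 209 SS bases, and 0.668 in KD, from 161 DS and 80 SS bases. KD minus control was thus −0.113 in replicate 1 and −0.0148 in replicate 2, and far fewer bases could be called in KD, where the transcript had fewer read starts. Under the alternatives tried (other totals, a stricter p and thinned libraries) it ran from −0.126 to −0.0511 in replicate 1 and from −0.0757 to −0.00815 in replicate 2. AKR1A1 had 0.656 and 0.675 in control and 0.621 and 0.662 in KD. A value lower in both replicates was also found for 34.9% of 4464 transcripts, so that the direction alone does not set these genes apart. Under the same alternatives that share ran from 19.3% (thinned libraries) to 75.5% (totals without the most covered transcript).

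Gene lists drawn up for the pathways around the family put its values in context. They were chosen with earlier results of these data known and are given as counts beside the background above. Of the AKR relatives, AKR1B15, a reductase next to AKR1B10, was at 2.17 and 1.75 RPKM in PARS-seq control and at 0.0597 and 0.0668 RPKM in KD, and was 2-fold lower there. It passed the filter on a mean of 1 RPKM only through its control values, so that no share of the relatives is read from it. AKR7A2P1, a processed pseudogene, was at 8.09 and 5.95 RPKM in RNA-seq, and KCNAB2, a potassium channel subunit of the same fold, at 20.4 and 26.5 RPKM. AKR7L, KCNAB1 and KCNAB3 were at 1.09 RPKM or less in every column, and AKR1E2 and AKR1CL1 at 0.158 RPKM or less.

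The NRF2 list holds genes of glutathione, iron and NADPH metabolism, along with transporters, detoxifying enzymes and KEAP1. In PARS-seq 12 of its 22 genes above 1 RPKM were 2-fold lower (median log2 ratio −1.19, against 0.04 over all genes), in RNA-seq 6 of 22 (median −0.58, against −0.01) and in Ribo-seq 1 of 22 (median −0.24, against 0.08), and none was higher. The Ribo-seq median rests on replicate 1, where it was −0.57 (all genes −0.02), against 0.15 in replicate 2 (all genes 0.16). It was −0.67 without control replicate 2, −0.40 without KD replicate 1, −0.04 without KD replicate 2 and 0.24 without control replicate 1. In the same order the median of all genes was −0.08, 0.03, 0.125 and 0.18. These fits are not paired, so that leaving out 1 library sets KD partly against control columns of the other set. The genes with the highest control level in RNA-seq were FTL and FTH1, the ferritin chains, and TKT, transketolase. FTL was at 21762 and 19592 RPKM in PARS-seq control and at 4837 and 8740 RPKM in KD, and at 5357 and 2244 RPKM in RNA-seq. FTH1 was at 3234 and 3206 RPKM in RNA-seq, TKT at 1248 and 915 RPKM, and KEAP1, the inhibitor of NRF2, at 64.0 and 59.7 RPKM. NFE2L2, which encodes NRF2, was not analysed here.

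Among other carbonyl enzymes 1 or 2 genes were 2-fold lower in each assay. In PARS-seq 1 of 20 was 2-fold lower (ALDH3A1) and 1 higher (ALDH1B1, at 5.68 and 5.02 RPKM in control and 12.4 and 12.2 RPKM in KD), where 2.04% of all genes were lower and 1.06% higher. In RNA-seq 2 of 19 were lower (ALDH1A3 and ALDH3A1), where 0.914% of all genes were, and in Ribo-seq 1 of 19 (ALDH3A1), where 0.257% were. Counts this small are not read against these shares. The median log2 ratio of the list was −0.05 in PARS-seq, −0.26 in RNA-seq and 0.12 in Ribo-seq, beside 0.04, −0.01 and 0.08 over all genes. Single libraries set the direction of the first and the last of these. By replicate the median was −0.16 and 0.06 in PARS-seq and −0.21 and 0.36 in Ribo-seq, and in Ribo-seq it was −0.58 without control replicate 2, −0.26 without KD replicate 1, 0.46 without KD replicate 2 and 0.64 without control replicate 1. The values with a library left out come from the same unpaired fits, with the limit given for the NRF2 list. DCXR, a xylulose reductase and the gene of this list with the highest control level in RNA-seq, was at 201 and 184 RPKM in RNA-seq, ALDH3A1 at 77.2 and 16.6 RPKM, and ALDH16A1 at 50.9 and 38.0 RPKM.

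The enzymes of steroid and bile acid metabolism, which share substrates with AKR1C and AKR1D1, held no gene that was 2-fold lower in any assay, among 12 to 14 above 1 RPKM. Their median log2 ratio was −0.31 in PARS-seq, −0.16 in RNA-seq and −0.04 in Ribo-seq. By replicate it was −0.36 and −0.26 in PARS-seq, but −0.34 and 0.46 in Ribo-seq, where it was −0.54 without control replicate 2, −0.20 without KD replicate 1, 0.34 without KD replicate 2 and 0.55 without control replicate 1, so that no direction is read in Ribo-seq. The values with a library left out carry the limit given for the NRF2 list. A single gene was higher, HSD11B2 in RNA-seq, at 0.457 RPKM in control and 1.99 RPKM in KD, which passed the filter only through its KD value. HSD17B10, a mitochondrial enzyme, was at 247 and 195 RPKM in RNA-seq and SRD5A1, a testosterone reductase, at 22.3 and 20.1 RPKM. HSD17B8 was at 44.2 and 39.2 RPKM in RNA-seq but is listed at 0 in all PARS-seq columns, one of the genes that separate the 2 sets of columns. With limma on log2(RPKM + 1) of the 4 Ribo-seq libraries, 0 of 10880 genes were called (0%, with 43 at an unadjusted p under 0.05), the lists included. That fit counts the difference between the Ribo-seq replicates, which lie in different sets of columns, as spread. With the replicate number as a block, an alternative chosen after seeing the data, 143 genes (1.31%) were called, 58 lower and 85 higher in KD. Of the 4 lists it called ALDH3A1 (log2 −1.81 ± 0.32 SE, adjusted p = 1.2e-05 by limma) and OSGIN1, a growth inhibitor induced by oxidative stress (log2 −1.26 ± 0.32 SE, adjusted p = 0.010 by limma), both lower in KD in both pairs. That fit drew its spread almost wholly from a trend over all genes, not from each gene's own replicates. Because the lists were drawn up with earlier results of these data known, these p-values are no support for these genes.

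**Figure D5:**
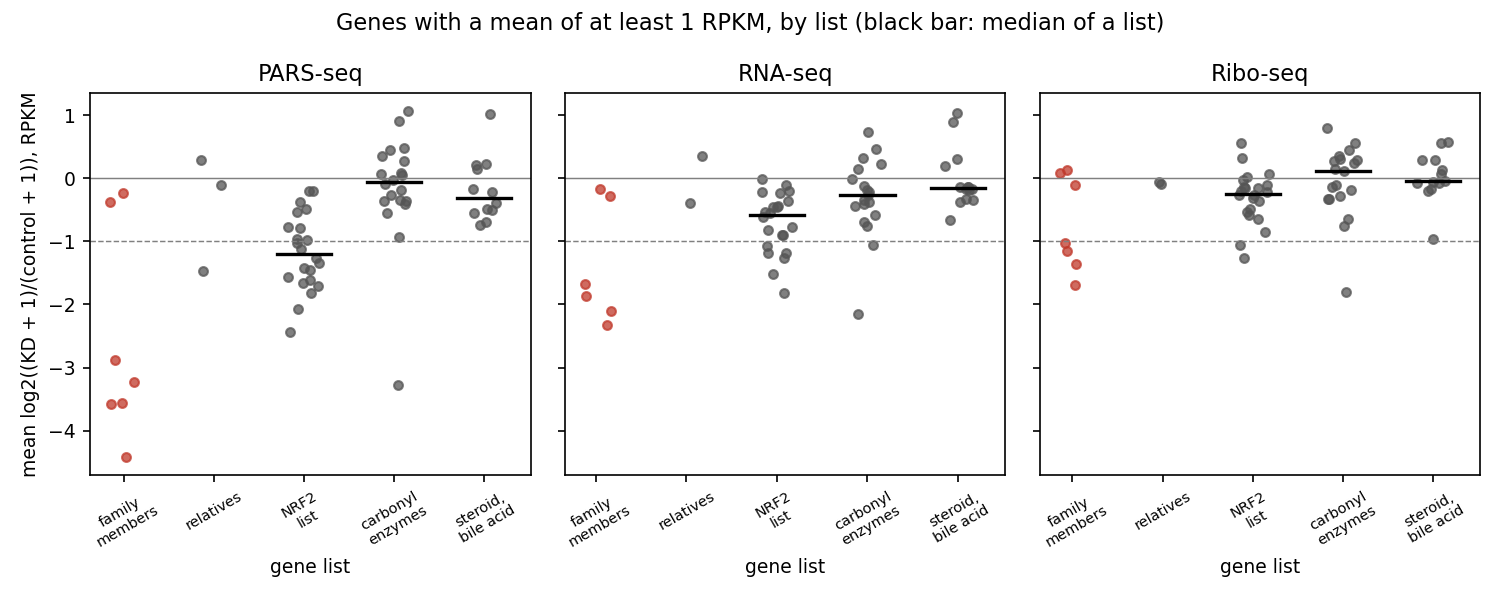
Mean log2((KD + 1)/(control + 1)) over the pairs of an assay for family members (red) and 4 gene lists (grey), leaving out genes whose mean was under 1 RPKM, with black bars at the medians of the last 3 lists, a solid line at 0 and a dashed line at 2-fold lower. The members drawn are 7, 6 and 7 in PARS-seq, RNA-seq and Ribo-seq, and the medians of the NRF2 list are −1.19, −0.58 and −0.24.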

How the data were processed

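The study measured 14 samples by PARS-seq (8), RNA-seq (2) and Ribo-seq (4). The authors trimmed reads with cutadapt, aligned them with Bowtie2 to hg19 (or, for read starts, to UCSC transcripts), kept uniquely aligned reads and deposited RPKM values per gene, where each PARS-seq column is their mean of an S1 and a V1 library, given with no SD or n and without a test. The authors also deposited, for each PARS-seq library, whole numbers of read starts per base of UCSC transcripts, without normalization. The S1 control replicate 1 file lists 4722 transcripts, so that read starts were compared on these. Groups and replicate numbers came from the labels.

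From RPKM, log2 ratios with 1 added were taken per pair of columns, pairing Ribo-seq by the replicate number in the file header. No RPKM column gives its depth. From the most common ratio among the lowest values, KD had 0.742 reads per control read in RNA-seq and 1.41 and 0.724 in Ribo-seq replicates 1 and 2, and the number of reads behind a value stays unknown. A total of 2 rows that shared a name were left out. V1 was compared with S1 with limma 3.58.1 (R 4.3.3) and a mean trend on log2 library-scaled read starts with 0.5 added, over all 8 libraries, two-sided, with Benjamini-Hochberg adjustment, keeping transcripts that reached 10 read starts in 2 libraries (at median depth) and 15 over all libraries. Ribo-seq lists were tested with limma on genes with a mean of at least 1 RPKM. Per-base calls used a two-sided exact binomial test, a close stand-in for Fisher's exact test against the library totals, for transcripts longer than 100 bases that had more than 256 read starts per library and 20 or more called bases. The scripts were tested on simulated data. Reads without molecular identifiers are not independent molecules. Tables of the study's supplement gave identifiers only, and no comparison column of the authors was used.

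Gene positions and coding sequences came from GENCODE release 44 on GRCh37, and promoters from RefSeq. Python 3.11.15, SciPy 1.17.1 and pandas 2.3.3 were used. The members and gene lists were chosen with earlier results of these data known. Genes named are the 10 members, ADAR, the AKR relatives, the 3 genes of each other list with the highest control RNA-seq RPKM, KEAP1, the 5 genes nearest to AKR1C1 and to AKR1B1, and the hepatocyte marker ALB. ALDH1B1, ALDH1A3, HSD11B2 and OSGIN1 were named after their values were seen. Alternatives covered the pseudocount, fold, centring, pairing, scaling, filters, thinning and leaving out each replicate. The Ribo-seq pairs taken alone, the replicate block in Ribo-seq and the folds of read starts without the most covered transcript were added after seeing the data.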

Additional observations from a re-analysis of the deposited data

Results flagged for a closer look

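AKR7A2 was lower in KD in both PARS-seq pairs and higher in KD in both Ribo-seq pairs. Its mean log2((KD + 1)/(control + 1)) was −0.24 in PARS-seq, from −0.41 and −0.07, and 0.0865 in Ribo-seq, from 0.06 and 0.12. The median of all genes was −0.02 and 0.16 in the Ribo-seq pairs, so that AKR7A2 lay above it in replicate 1 and below it in replicate 2, and relative to that median the opposite direction is lost in replicate 2. The difference between the assays was not tested. Of 10337 genes with a mean of at least 1 RPKM in both assays, 763 (7.38%) showed this combination of directions and 786 (7.6%) the reverse. No group had the 4 samples that a check for single outlying libraries needs.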

How the results depend on the processing

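The direction and count of members that were 2-fold lower in PARS-seq and RNA-seq stayed within 1.5 times under every alternative tried (5 or 6 and 4 or 5 members). In Ribo-seq the count of 1 became 3 with the ratio of means, 2 at 1.5-fold and 0 with the other pairing of the columns, and ranged from 0 (without control replicate 1) to 5 (without replicate 2). It was 3 without control replicate 2 (AKR1C1, AKR1C3 and AKR1B1), and without KD replicate 2 the 1 member was AKR1C2. The transcripts called between V1 and S1 numbered 617 in control and 626 in KD cells. TMM scaling gave 1053 and 1097, and library sizes without the most covered transcript gave 1180 and 1209, where V1 was higher for 728 of 1180 against 159 of 617. Leaving out one library gave 329 (without V1 control replicate 2) to 587 in control cells, with 341 without S1 control replicate 1, and 274 (without S1 KD replicate 1) to 622 in KD cells, with 303 without S1 KD replicate 2 and 325 without V1 KD replicate 1. The median of all transcripts moved from −0.10 to 0.12 (log2) in control cells between these scalings. With the replicate block, 835 and 848 transcripts were called, and AKR1B1 (0.47, adjusted p = 0.22, and 0.48, adjusted p = 0.20) and AKR1A1 were not. The labels give PARS-seq groups a shared number only, although replicate deviations correlated at 0.453 to 0.731 between all groups.

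The small V1-minus-S1 difference of AKR1A1 (log2 −0.07 in control cells) changed sign to 0.0358 with TMM scaling and 0.15 without the most covered transcript, and ran from −0.48 to 0.34 when 1 library was left out. In KD cells (0.10) it ran from −0.14 to 0.33. The Ribo-seq test called 0 genes, and 24 without KD replicate 2, all lower and none on the lists. KD is then 1 library, assumed to vary like the controls, and the spread comes from the 2 control libraries, which lie in different column sets. With the replicate block it called 143, of which 2 were on the lists (ALDH3A1 and OSGIN1), with the limits given above. The blocked fit holds the difference between the 2 column sets apart. DS/(DS + SS) of AKR1A1, KD minus control, moved from −0.0240 to −0.0604 with the totals of the transcript to −0.0489 without the most covered transcript and to −0.0115 with thinned libraries. That of AKR1B1 went from −0.0637 to −0.0296 with thinned libraries and to −0.0966 at p under 0.01, and neither gene changed sign. The share of transcripts lower in both replicates ran from 19.3% (thinned libraries) to 75.5% (without the most covered transcript). The cause of these changes was not tested. In all, 113 of 141 alternative values counted as unchanged. For counts that meant within 1.5 times, even where other genes made up the count. For the V1-minus-S1 differences of a member it meant the same sign and side of the threshold. For DS/(DS + SS), folds of read starts and Ribo-seq to RNA-seq ratios it meant a move smaller than the SD of the 2 replicate values.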
